A study of Mus musculus with 28 samples.

Results

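The 9 features described here are ribosomal RNA (rRNA) and repeat-derived entries of the expression table: CT010467.1, Gm42418 and Gm26917 from the nuclear rRNA locus, mt.Rnr2 from the mitochondrial genome, and Gm26870, Gm10800, Gm10801, Gm10717 and Gm21738, which carry a satellite repeat. They were chosen by their mean level over 27 libraries, as the rRNA and repeat-like entries at the top of a table of 53801 features, so their high levels are a description and not a finding. The libraries are bulk RNA-seq of regulatory T (Treg) cells sorted as TCR+CD4+CD25hi CD127lo cells from the spleen, or from orthotopic CT2A tumors, a mouse model of glioblastoma (GBM) made with a transplanted cell line. Mice carrying a tumor of 2 mm3 received 4 doses of 250 μg, 3 days apart, of either control IgG or aPD1+aGITR, antibodies to the T cell receptors PD1 and GITR, and tissues were taken 2 days after the last dose. There were 7 spleen and 5 GBM libraries after IgG, and 8 spleen and 7 GBM libraries after aPD1+aGITR. All mice carried tumors, so no group stands for a tumor-free spleen, and the sources used here give no age for these mice. The labels do not say whether libraries that share a number and differ by a letter came from 1 animal, so p-values measure the spread between libraries, part of which may be technical. The study's description counts fewer animals per treatment than there are spleen libraries, so some spleen libraries would share an animal, and p-values of every test that uses them would then be too small. A list of 10 Treg and T cell markers checked the sort: in every group all 10 had a mean above 10 transcripts per 1000000 (TPM). Their sum ran from 247.5 TPM in library spleen_79_d to 2972 TPM in library tumor_70_a, with a median of 853 TPM in either spleen group. The summed median of 5 erythroid markers there was 1573 TPM after IgG and 6881 TPM after aPD1+aGITR. The check thus shows these markers present, not other cells absent.

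Ribosomal RNA is the bulk of RNA in a cell. Nuclear rRNA genes lie in tandem arrays that RNA polymerase I transcribes in the nucleolus, whereas the mitochondrial genome encodes its own pair of rRNAs on the transcript that also holds its messenger RNAs. Mouse major satellite is an A/T-rich tandem repeat at the pericentromeres, which is normally packed into heterochromatin marked by HP1 proteins and Suv39h enzymes, and RNA from it is kept low in most differentiated cells. Smart-Seq2, the protocol used here, primes cDNA at poly(A) tails, amplifies it from few cells, and the labels give the molecule as polyA RNA.

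All 9 symbols matched the GENCODE M21 annotation of GRCm38, the assembly also called mm10. Gm26870 is a lincRNA gene on the minus strand at chr9:3000282-3038313. The first of its 2 models of 1170 bases opens with the unit shown here, which defines the satellite-like group. It is 234 bases long, and in the 3 models of Gm26870 between 78.3% and 95.9% of the bases equal the base 234 positions further on.
Gm26870: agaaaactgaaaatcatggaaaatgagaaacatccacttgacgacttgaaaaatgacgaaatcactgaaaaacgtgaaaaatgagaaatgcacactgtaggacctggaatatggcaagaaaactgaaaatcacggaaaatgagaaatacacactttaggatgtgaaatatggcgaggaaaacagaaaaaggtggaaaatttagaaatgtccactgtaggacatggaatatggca

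The other 4 satellite-like members are annotated as protein_coding and carry the same repeat on the opposite strand. Gm10800 lies on the minus strand at chr2:98666547-98667301, Gm10801 on the plus strand at chr2:98662237-98664083, Gm10717 on the plus strand at chr9:3025417-3033289, inside the span of Gm26870, and Gm21738 on the minus strand at chr14:19415857-19418930. In Gm26870 A made up 45.5% to 46.5% of the bases, and in the transcripts of the other 4 T made up 45.8% to 48.6%. The first 60 bases of Gm26870 are set against the best matching windows of the other 4, each given as its reverse complement, because these near-identical stretches decide how reads can be assigned. Capitals mark the bases that differ from Gm26870, of which there are 0 in Gm10800 and Gm21738, 1 in Gm10801 and 2 in Gm10717.
Gm26870: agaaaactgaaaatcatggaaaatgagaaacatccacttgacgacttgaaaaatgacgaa
Gm10800: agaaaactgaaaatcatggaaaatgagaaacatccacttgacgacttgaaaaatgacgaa
Gm10801: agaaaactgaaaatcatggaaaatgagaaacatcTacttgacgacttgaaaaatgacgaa
Gm10717: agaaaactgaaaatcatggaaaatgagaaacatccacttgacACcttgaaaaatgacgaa
Gm21738: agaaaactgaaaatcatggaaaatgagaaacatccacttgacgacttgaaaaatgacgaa

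Of 141767 annotated transcripts searched, 29 from 13 genes had at least 20% of their 20-base words in common with Gm26870 on either strand. The 13 genes are the 5 satellite-like members and Gm10715, Gm10718, Gm10719, Gm10720, Gm10721, Gm10722, Gm11168 and Gm17535, all on chromosome 9 within 50000 bases of Gm26870. RSEM, with which the authors estimated abundance, divides a read among all the transcripts that match it. How the satellite signal is split among these 13 genes is therefore uncertain, and their sum is better defined than any of them.

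The nuclear rRNA members lie side by side on chromosome 17. CT010467.1, annotated as rRNA, is on the minus strand at chr17:39846353-39848827, and Gm42418, a lincRNA gene, is on the plus strand at chr17:39846958-39848788. They are shown together because they are largely 1 sequence read from both strands: the first 1244 bases of Gm42418 occur without a mismatch, as their reverse complement, in the 1849-base model of CT010467.1. The run printed for Gm42418, positions 1185 to 1244, ends with ggatcatta, which is known as the 3′ end of the small-subunit rRNA (in capitals), and the first 60 bases of CT010467.1 are its reverse complement.
CT010467.1: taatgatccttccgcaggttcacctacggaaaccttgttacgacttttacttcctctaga
Gm42418: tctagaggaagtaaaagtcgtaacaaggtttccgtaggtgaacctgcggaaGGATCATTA

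Whether reads were counted by strand is not given in the sources used here, so reads of this stretch cannot be told apart between CT010467.1 and Gm42418. Gm26917, a lincRNA gene on the plus strand at chr17:39843013-39846341, shares no run above 13 bases with the 1849-base model of CT010467.1. The mitochondrial mt.Rnr2, the large-subunit rRNA of the mitochondrial ribosome, lies at chrM:1094-2675 on the plus strand. No transcript of the 9 members holds a run of A above 7 bases.

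Values are in TPM, a measure per transcript length in which each library sums to 1000000, so that TPM is also a share of the library and a rise of 1 feature lowers the others. The table holds no counts, so depth is unknown. By mean TPM over the 27 libraries CT010467.1 ranked 1 with 32.7% of TPM, Gm26870 ranked 2 with 11.6%, Gm10800 ranked 3 with 7.31%, Gm10801 ranked 4 with 1.14%, Gm42418 ranked 5 with 1.12%, mt.Rnr2 ranked 6 with 1.09% and Gm26917 ranked 7 with 0.637%. Gm10717 ranked 9 with 0.436% and Gm21738 ranked 10 with 0.382%, and the cytoskeletal gene Actb took the place between them and Gm26917. At the edge of the choice, Gm21738 had a mean of 3824 TPM and the next feature, the satellite-carrying Gm10719, 3027 TPM.

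Together the 9 members took between 30.8% and 78.2% of TPM, with a median of 57.7% over the 27 libraries. Group means (± SD) were 62.2% ± 16.2 in spleen after IgG, 59.9% ± 12.4 in spleen after aPD1+aGITR, 53.3% ± 11.9 in GBM after IgG and 48.8% ± 8.76 in GBM after aPD1+aGITR, and every pair of groups overlapped. Both extremes were spleen libraries after IgG that share a number, spleen_79_b with 30.8% and spleen_79_a with 78.2%. The satellite-like members varied most. Their summed share, the satellite-like share, ran from 1.35% in library spleen_76_a to 60.1% in library spleen_79_a, which is 44.6 times the lowest. The nuclear rRNA members ran from 14.5% in library tumor_369_a to 56.2% in library tumor_74_a, a ratio of 3.88, and mt.Rnr2 from 0.250% to 4.88%, a ratio of 19.5. In 4 spleen libraries, spleen_79_a and spleen_79_d after IgG and spleen_70_a and spleen_72_b after aPD1+aGITR, the satellite-like share was between 49.7% and 60.1%, and in all other libraries at most 33.3%. The part of cell content in this was not tested, and in bulk libraries fewer cells of a type and less RNA per cell cannot be told apart.

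**Figure D1:**
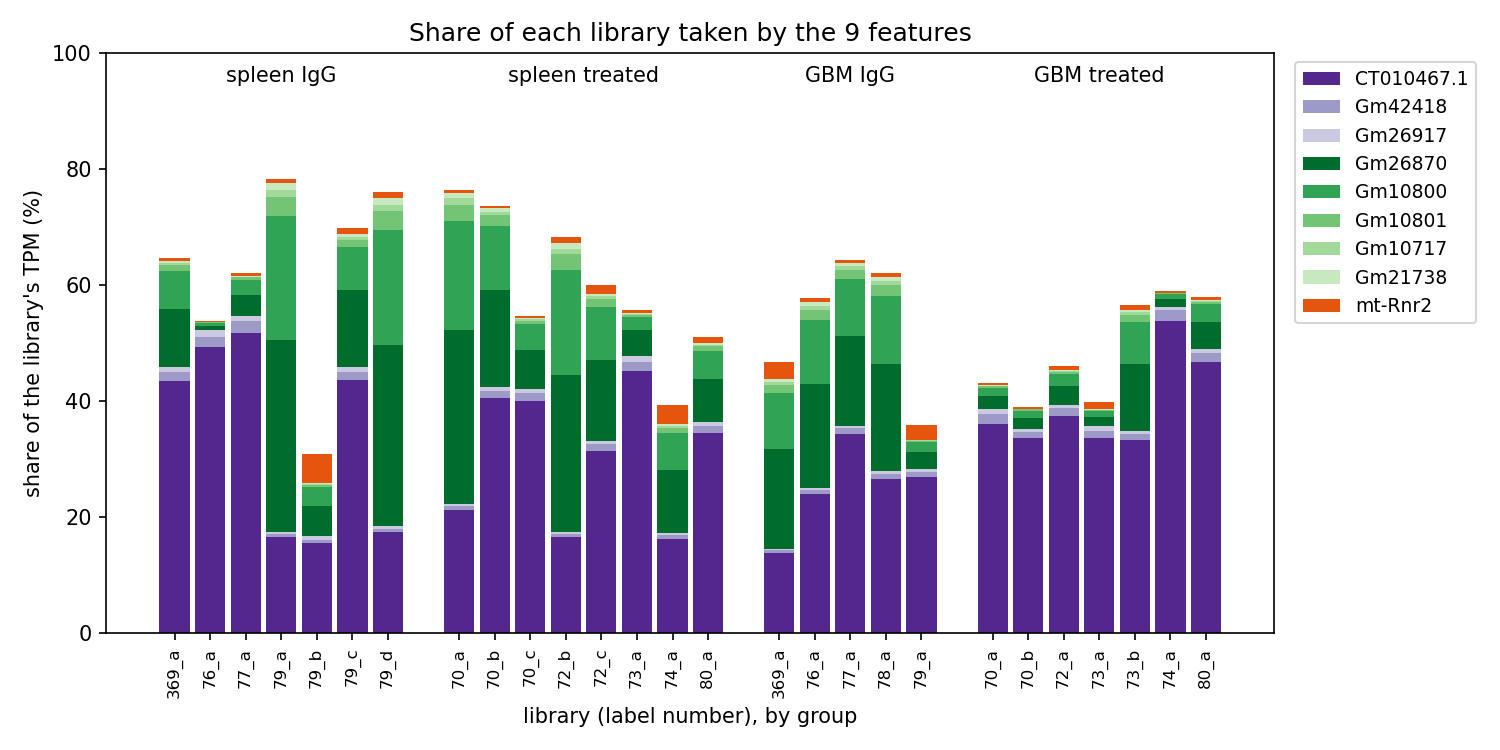
Share of summed TPM (percent, vertical axis) taken by the nuclear rRNA, satellite-like and mitochondrial rRNA members in each of the 27 libraries, grouped by tissue and treatment and stacked to their total. The satellite-like share is 49.7% to 60.1% in 4 spleen libraries and at most 8.52% in 6 of 7 GBM libraries after aPD1+aGITR.

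In GBM Treg cells the satellite-like members were lower after aPD1+aGITR and the nuclear rRNA members higher, though none passed the adjusted threshold with all libraries weighted equally. Gm26870 had 171571, 178765, 154426, 184254 and 29428 TPM in the IgG libraries tumor_369_a, tumor_76_a, tumor_77_a, tumor_78_a and tumor_79_a. After aPD1+aGITR it had 22449, 19079, 32504, 15917, 117007, 13421 and 46802 TPM in libraries tumor_70_a, tumor_70_b, tumor_72_a, tumor_73_a, tumor_73_b, tumor_74_a and tumor_80_a. The groups overlapped through tumor_79_a, which lay among the treated libraries, while treated library tumor_73_b lay above the other 6 but under the remaining IgG libraries. The difference in mean log2(TPM + 1), treated minus IgG, was -2.07 (standard error, SE, 0.48), which is 4.20-fold lower, with an exact two-sided permutation p = 0.0189. In limma, fitted over 7848 features (those that exceeded 10 TPM on average in either group), its Benjamini-Hochberg adjusted p was 0.0977. Every SE given here is limma's, moderated by the spread of other features, and not the SE of the group means alone. The SD of log2(TPM + 1) between libraries was 1.08 after treatment and 1.14 after IgG.

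The other satellite-like members had the same libraries out of line. For Gm21738 treated library tumor_73_b, with 4172 TPM, also lay above IgG library tumor_369_a, with 3921 TPM. In the IgG order above, Gm10800 had 98095, 111215, 98733, 116535 and 17174 TPM, and in the treated order 15107, 12248, 21026, 10720, 71869, 8748 and 30019 TPM. Differences, treated minus IgG, were -1.98 for Gm10800 (exact permutation p = 0.0202), -1.89 for Gm10801 (p = 0.0265), -2.02 for Gm10717 (p = 0.0202) and -1.85 for Gm21738 (p = 0.0328). As the 5 are read from 1 repeat, they are not 5 independent results.

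CT010467.1 had 138811, 239170, 343289, 266470 and 268800 TPM in the IgG libraries and 360713, 336188, 374599, 336047, 332951, 537465 and 468172 TPM in the treated ones. Of the IgG libraries tumor_77_a alone reached the treated range. The difference was 0.68 (SE 0.19), 1.60-fold higher after treatment, with p = 0.00505 by exact permutation and an adjusted p = 0.0977 in limma. Gm42418 had 4586, 7284, 10066, 8475 and 8501 TPM after IgG and 16894, 10721, 12801, 13109, 10738, 18747 and 14348 TPM after aPD1+aGITR, and its groups did not overlap. Its difference was 0.86 (SE 0.23) with an adjusted p = 0.0977 in limma and an exact permutation p = 0.00126, the smallest that 792 splits of 5 and 7 libraries allow. Absence of overlap with higher values after treatment was seen for 1.77% of the features tested. Gm26917 had 1670, 3687, 3949, 4990 and 5271 TPM after IgG and 8169, 5378, 6560, 7440, 4015, 6161 and 7181 TPM after aPD1+aGITR. Here 6 of 7 treated libraries lay above every IgG library, and the difference was 0.78 (SE 0.29), with p = 0.00884 by exact permutation and an adjusted p = 0.151 in limma.

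The mitochondrial rRNA had a lower mean after aPD1+aGITR, through 2 IgG libraries. For mt.Rnr2 the levels were 29378, 6922, 5521, 7598 and 24867 TPM after IgG and 4539, 3427, 8060, 13071, 7704, 3468 and 3821 TPM after aPD1+aGITR. The highest values were those of tumor_369_a and tumor_79_a, and the rest of the groups overlapped. The difference was -1.06 (SE 0.43), with p = 0.0846 by exact permutation and an adjusted p = 0.174 in limma. Without these 2 libraries it was -0.25.

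With equal weights no member passed an adjusted p of 0.05 in GBM, where 0% of the features tested did. At an unadjusted limma p under 0.05 there were 3 of 9 members higher, against 17.4% of all features, and 6 of 9 lower, against 4.91%. The median difference over all features was 0.62, so the nuclear rRNA members lay near it and the satellite-like members and mt.Rnr2 on the other side of 0. Scaled to the features that are not members, CT010467.1 differed by 0.53 (exact permutation p = 0.159) and Gm26870 by -2.22 (p = 0.0215). On that scale Gm42418 differed by 0.71 (exact permutation p = 0.0505), Gm26917 by 0.63 (p = 0.0606) and mt.Rnr2 by -1.21 (p = 0.0240).

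Single libraries and their weights decided which members passed. With all 12 libraries kept and weighted by their spread, the 5 satellite-like members had adjusted p between 0.0224 and 0.0275 in limma, and 263 of the 7848 features passed. Without IgG library tumor_79_a the 5 satellite-like members differed by -2.58 to -2.42 with adjusted p between 0.0172 and 0.0434 in limma, and without treated library tumor_73_b by -2.41 to -2.19 with adjusted p between 0.0331 and 0.0414. Of 12 fits that left out 1 library these were the 2 in which they passed. Both libraries ran against the difference, so these fits are a description and no support. The share of all features that passed in them is not given here. Without tumor_369_a and tumor_79_a together the 5 satellite-like members differed by -2.58 to -2.51, with adjusted p between 0.0681 and 0.0794. CT010467.1 was lowest in tumor_369_a, without which it differed by 0.48 (limma, adjusted p = 0.577). Library tumor_79_a also had the highest summed level of 12 macrophage and microglia markers in GBM, 4855 TPM, followed by treated library tumor_73_a with 1903 TPM, and the other 10 GBM libraries had 37.7 to 302 TPM. Its summed level of 5 erythroid markers was 2371 TPM, against at most 201 TPM in the other 11 GBM libraries. The part of these cells in its low satellite level was not tested. Library tumor_369_a had the fewest features above 1 TPM, 7702, where the other 26 had 10175 to 17460.

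**Figure D2:**
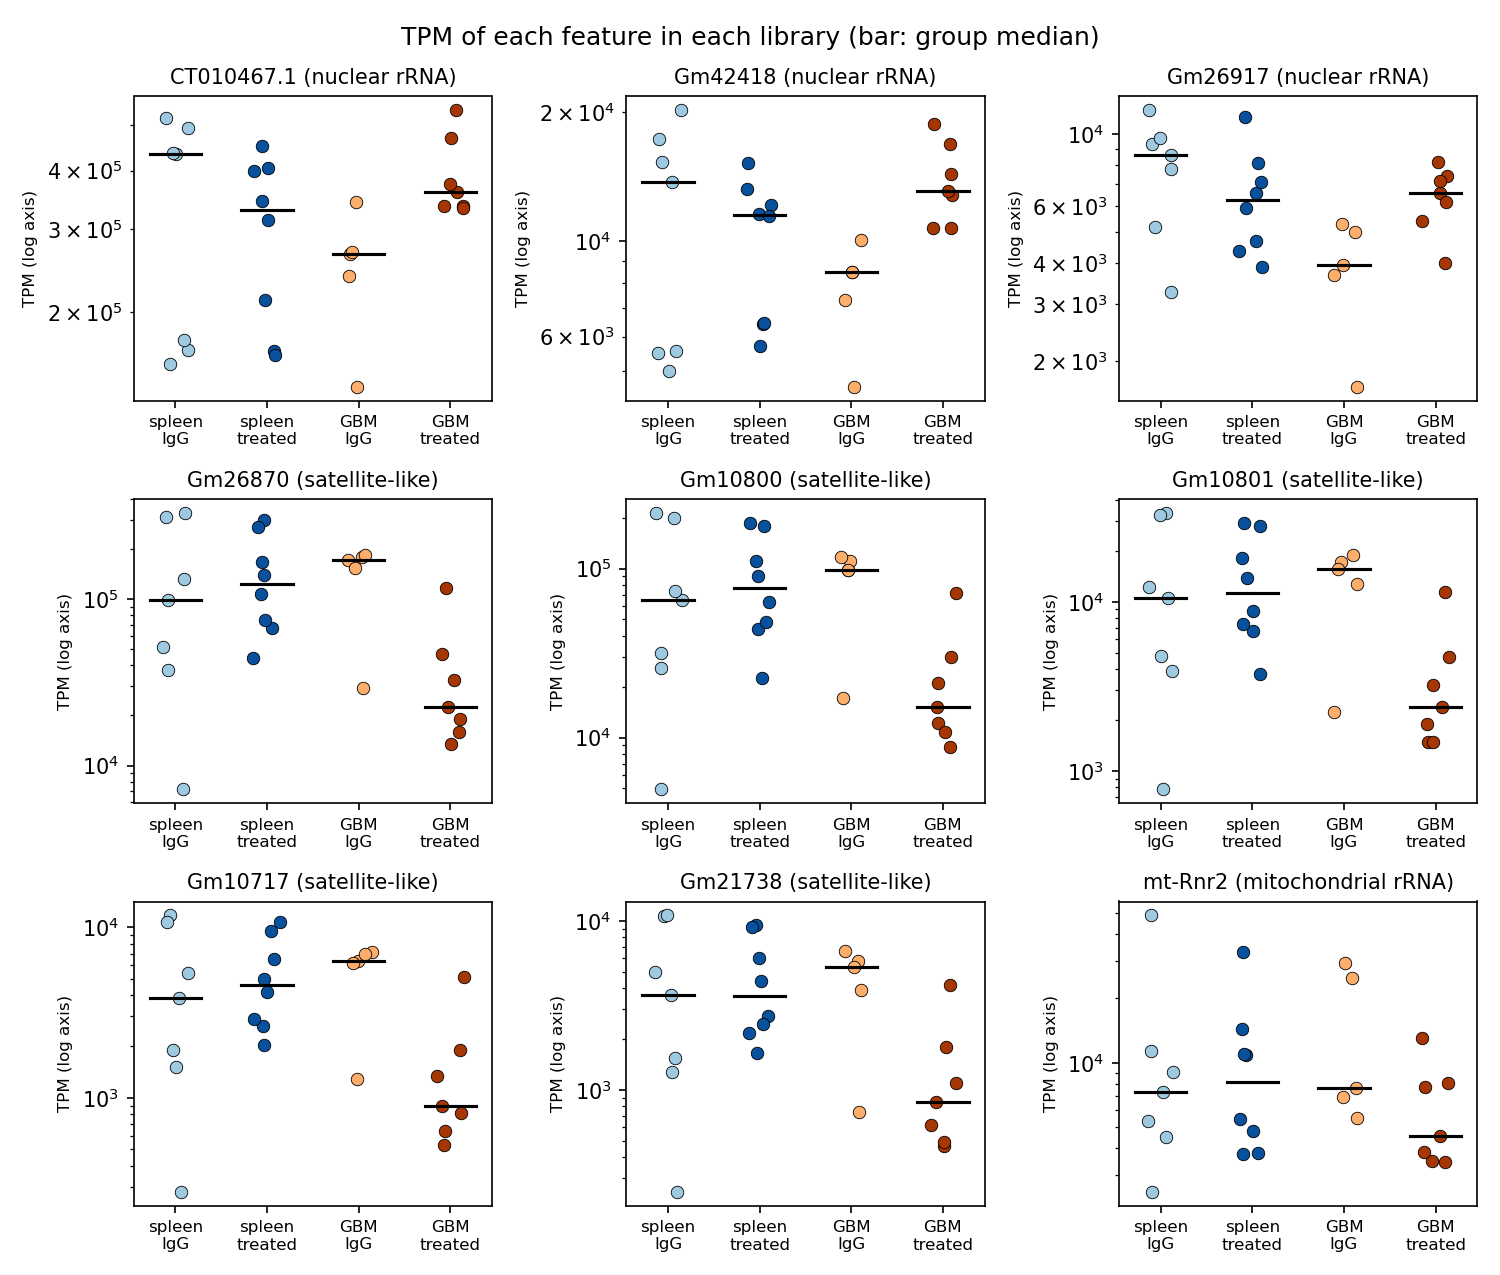
TPM of each of the 9 members (vertical axes, log scale) in every library of the 4 groups, with a bar at the group median. In GBM the 7 treated libraries of Gm42418 lie above all 5 IgG libraries, and Gm26870 shows 1 low IgG library, at 29428 TPM, and 1 high treated library, at 117007 TPM.

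In splenic Treg cells the same treatment left all members within the spread of the libraries. CT010467.1 ranged from 154881 to 517207 TPM with a median of 434641 after IgG, and from 162199 to 451663 TPM with a median of 329436 after aPD1+aGITR. Gm26870 ranged from 7210 to 330674 TPM (median 99330) and from 44106 to 298624 TPM (median 123654). The groups overlapped over most of their range for either member. The differences were -0.07 (SE 0.81) for CT010467.1 and 0.61 (SE 0.88) for Gm26870, with exact permutation p = 0.846 and 0.464. mt.Rnr2 was listed at 2503 to 48845 TPM after IgG and at 3752 to 33084 TPM after aPD1+aGITR, a difference of 0.03 (SE 0.72). None of the 9 passed an unadjusted p of 0.05, where 2.53% of 6634 features did, and 0% of the features passed the adjusted threshold in limma.

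Whether treatment acted differently in the 2 tissues was tested as the interaction over all 4 groups. For the satellite-like members the treatment difference was more negative in GBM than in spleen, with coefficients on the log2 scale from -2.68 (Gm26870) to -2.39 (Gm21738), all at an unadjusted limma p under 0.05. These 5 of 9 members compare with 5.35% of 8687 features that had a negative coefficient at that threshold. Adjusted, their p was 0.314 to 0.341, and 0% of the features passed. For CT010467.1 the interaction was 0.74 (SE 0.60, adjusted p = 0.639) and for mt.Rnr2 -1.09 (SE 0.85, adjusted p = 0.626).

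Between GBM and spleen under IgG no member passed the adjusted threshold, which 0.569% of 7380 features did, nor an unadjusted limma p of 0.05, which 9.93% did. CT010467.1 differed by -0.31 (SE 0.81) and Gm26870 by 0.61 (SE 0.91). For Gm26917 5 of 7 spleen libraries lay above every GBM library. Its difference, GBM minus spleen, was -1.02 (SE 0.70), with p = 0.0265 by exact permutation and an adjusted p = 0.632 in limma. As a ratio to the features that are not members it differed by -1.39 (exact permutation p = 0.00379).

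After aPD1+aGITR the satellite-like members were lower in GBM than in spleen. Gm26870 was listed at 13421 to 117007 TPM in GBM, with a median of 22449, and at 44106 to 298624 TPM in spleen, with a median of 123654. Of the GBM libraries 5 of 7 lay below every spleen library. The difference, GBM minus spleen, was -2.07 (SE 0.48), 4.19-fold lower, with an adjusted p = 0.00774 in limma and an exact permutation p = 0.00342 over 6435 splits. Gm10800 differed by -2.01 (adjusted p = 0.00994), Gm10801 by -2.003 (adjusted p = 0.0120), Gm10717 by -1.97 (adjusted p = 0.0119) and Gm21738 by -1.97 (adjusted p = 0.0146). These were 5 of 9 members called lower, against 1.61% of 7506 features. The median difference of all features was 0.95, and 15.8% of them were called higher, but none of the 9 members was. The satellite-like share had a mean of 6.92% ± 6.53 (SD, n = 7) in GBM and 26.4% ± 17.3 (SD, n = 8) in spleen.

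The call held for all 5 in each of 15 fits that left out 1 library, with adjusted p between 0.00247 and 0.0389. The limit on spleen libraries that may share an animal applies to this call. It was lost for all 5 when no filter on low values was set and 42667 features were tested (adjusted p 0.0528 to 0.0945). Erythroid markers moved with the tissue as well: all 5 were called lower in GBM, where 1.61% of all features were. Their summed level was 0.220 to 201 TPM in GBM and 25.4 to 28398 TPM in spleen after aPD1+aGITR. All 5 had a mean above 10 TPM in spleen but only 2 in GBM. The rest passed the filter through spleen alone, where they were high, so the count is a description and no support. Gm26870 was at 66725 TPM in the spleen library lowest in these markers, spleen_70_c, and at 107176 TPM in the highest, spleen_74_a. Other spleen libraries went the opposite way. Gm26870 was highest, at 298624 TPM, in spleen_70_a, with 295 TPM of these markers. It was lowest, at 44106 TPM, in spleen_73_a, with 28141 TPM of them. Of 12 macrophage and microglia markers 8 were tested, and 2 were called higher in GBM, where 15.8% of all features were: Cx3cr1 and C1qa, with medians of 2.04 and 4.29 TPM in spleen. Both passed the filter through GBM alone, so their count is a description and no support. Of the 10 Treg markers 5 were called higher. The part of cell content in the difference was not tested.

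For the rRNA members no difference passed the adjusted test here. CT010467.1 was listed at 332951 to 537465 TPM in GBM and 162199 to 451663 TPM in spleen after aPD1+aGITR, a difference of 0.43 (SE 0.31, adjusted p = 0.286). Gm42418 differed by 0.49 (SE 0.34) and Gm26917 by 0.03 (SE 0.35). Scaled to the features that are not members, Gm26917 differed by -0.37 and CT010467.1 by 0.03. The mitochondrial mt.Rnr2 differed by -0.56 (SE 0.47, adjusted p = 0.352), and on the scale of ratios by -0.96 (exact permutation p = 0.0434).

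**Figure D3:**
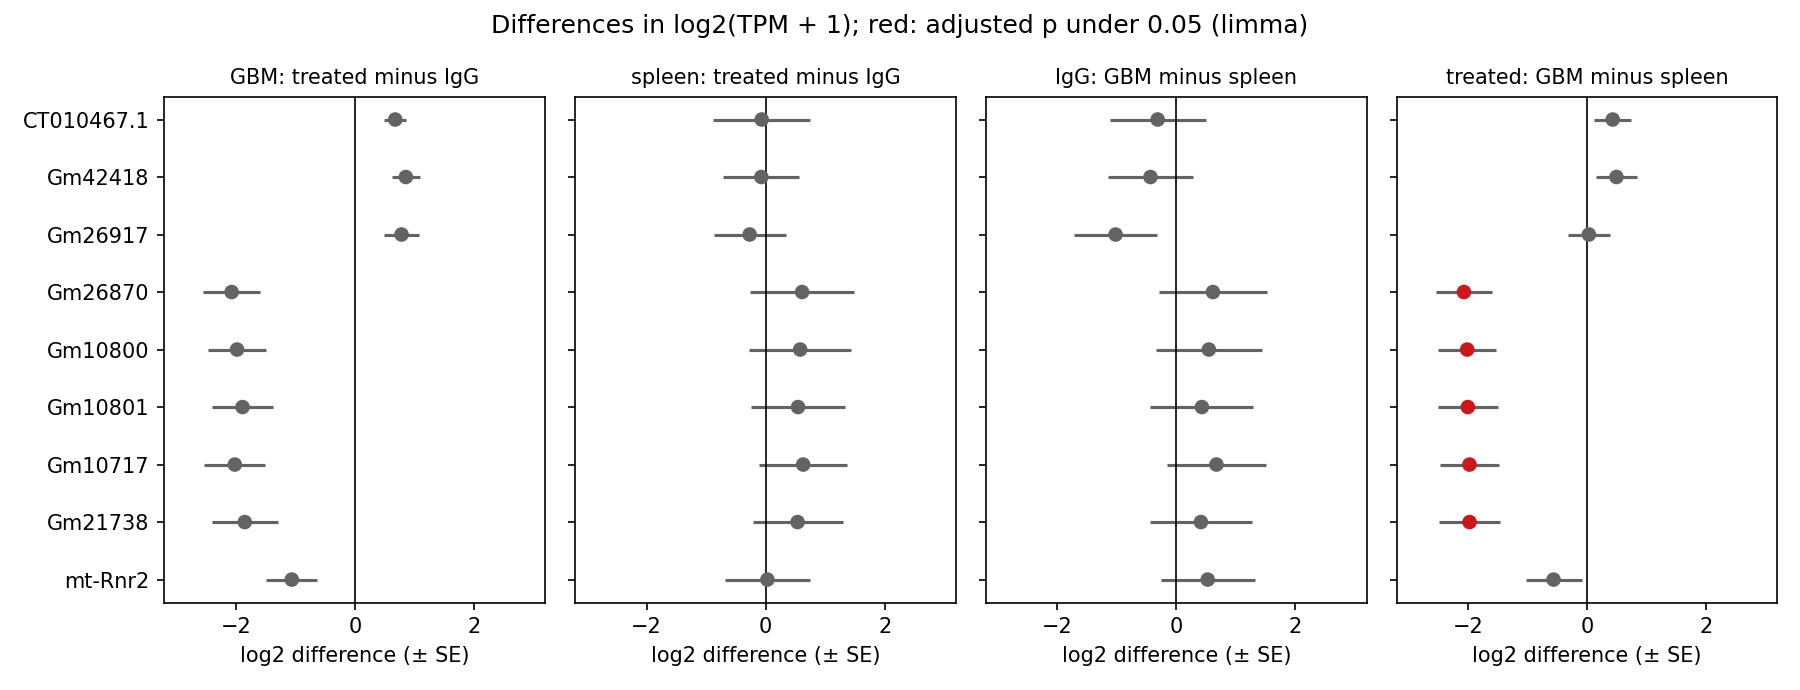
Difference in mean log2(TPM + 1) (horizontal axis) with its limma standard error for the 9 members in 4 comparisons of tissue and treatment, red where the adjusted p is under 0.05. The 5 satellite-like members are red only in GBM versus spleen after aPD1+aGITR, between -2.07 and -1.97.

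The members followed each other in 3 blocks. Over the 27 libraries, on log2(TPM + 1), the 10 pairs of satellite-like members had Pearson r between 0.992 and 0.998 and Spearman rho between 0.985 and 0.998, each with a permutation p = 1e-05, the smallest that 100000 permutations can give, and r was 0.989 to 0.998 without the 2 libraries farthest from the median. The ratio of Gm26870 to Gm10800 stayed between 1.46 and 1.95 while Gm26870 itself varied from 7210 to 330674 TPM. Within spleen (15 libraries) their r was 0.992 to 0.999 and within GBM (12 libraries) 0.987 to 0.999. Reads of the same repeat are divided among these members, so a close relation between them was built in and is a description. CT010467.1 and Gm42418 had r = 0.97 and rho = 0.94 (permutation p = 1e-05 for both, r = 0.96 without the 2 farthest libraries), and Gm42418 was 2.93% to 4.68% of CT010467.1 in every library. As they are largely the same sequence, their relation may be built in as well. Gm26917 followed CT010467.1 less closely, with r = 0.71 and rho = 0.73 (permutation p = 2e-05 and 3e-05, r = 0.76 without the 2 farthest libraries), at 1.15% to 5.05% of it.

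Nuclear rRNA and satellite-like members were inversely related as shares. The 15 pairs had r between -0.67 and -0.51 and rho between -0.70 and -0.49 over all libraries, with permutation p adjusted over the 36 pairs of at most 0.00785 and 0.0123. For CT010467.1 and Gm26870 r was -0.59 (permutation p = 0.00126) and rho -0.60 (p = 0.0012), and without the 2 libraries farthest from the median of CT010467.1 r was -0.65. Over the 15 pairs r was -0.82 to -0.53 within spleen and -0.72 to -0.49 within GBM, where the highest adjusted p was 0.0442 and 0.114. For rho the highest adjusted permutation p was 0.107 within spleen and 0.152 within GBM. With each group centred on its mean r was -0.69 to -0.41, with adjusted p up to 0.0934. Shares of a fixed total are not free to vary independently, and the members hold much of it. Taken as ratios to the summed features that are not members, the same 15 pairs had r between -0.02 and 0.17, and CT010467.1 and Gm26870 had r = 0.091 and rho = 0.13 (permutation p = 0.652 and 0.511). The ratios in turn share a denominator, which was 21.8% to 69.2% of TPM, and what lies behind the relation was not tested.

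mt.Rnr2 was inversely related to CT010467.1 on both scales. Against CT010467.1 its r was -0.71 (permutation p = 5e-05, adjusted over 36 pairs 0.000129) and rho -0.70 (permutation p = 3e-05), and as ratios to the other features r was -0.61 (permutation p = 0.00069) and rho -0.53 (p = 0.00556). Without the 2 libraries farthest from the median of CT010467.1 the first r was -0.60. Against the satellite-like members its r was 0.17 to 0.26, with adjusted permutation p from 0.215 to 0.395. As ratios that r was 0.42 to 0.49, with adjusted permutation p from 0.0227 to 0.0515, under 0.05 in all pairs but that with Gm21738, and without the 2 farthest libraries it was 0.31 to 0.38. In all, 30 of the 36 pairs passed an adjusted permutation p of 0.05 on log2(TPM + 1), and 19 did as ratios. Both counts include the pairs that share reads.

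**Figure D4:**
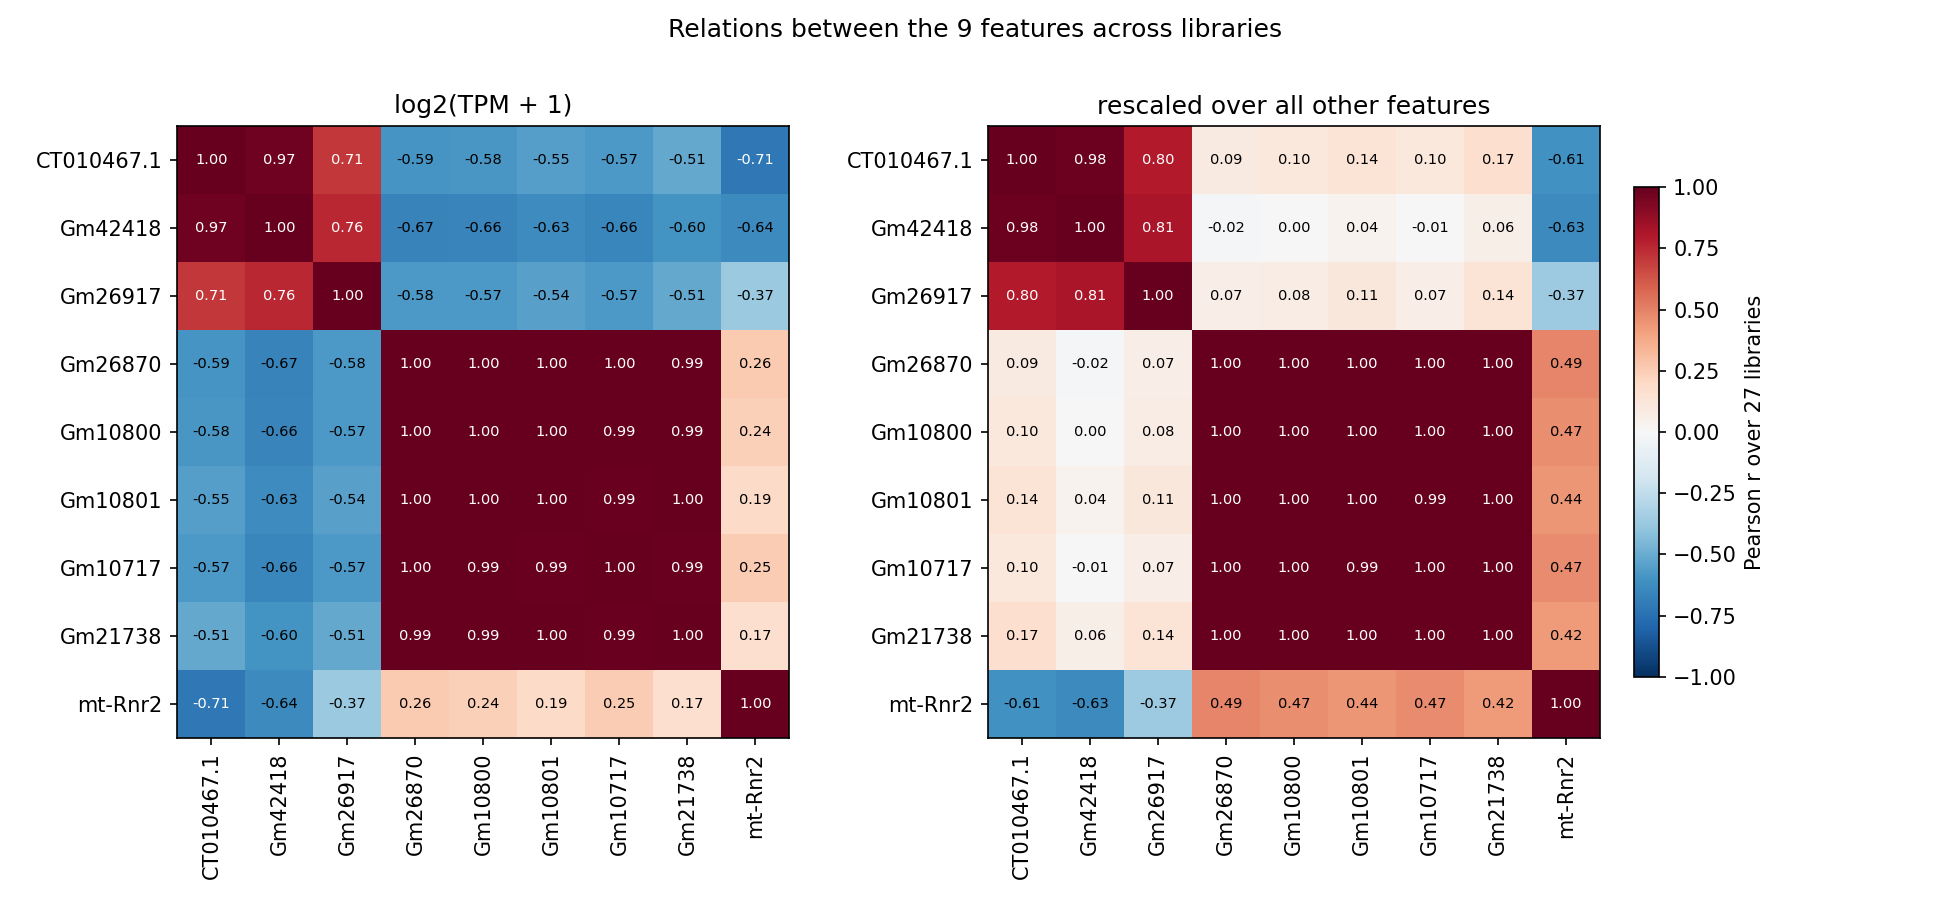
Pearson r for each of the 36 pairs of members over 27 libraries, on log2(TPM + 1) (left) and as log2 ratios to the summed features that are not members (right). The satellite-like block is above 0.99 in both, and the block of nuclear rRNA against satellite-like members is -0.67 to -0.51 on the left and -0.02 to 0.17 on the right.

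The satellite level also moved with how many features a library detected, in opposite directions at 2 thresholds. Over the 27 libraries Gm26870 had r = 0.45 (permutation p = 0.0183, adjusted over 9 members 0.0343) and rho = 0.48 (p = 0.012) with the number of features above 1 TPM, and r was 0.72 without the 2 libraries farthest from the median number of features. With the number above 10 TPM r was -0.60 (permutation p = 0.00092, adjusted 0.00207) and rho -0.61 (p = 0.00076), and without the 2 libraries farthest from the median at that threshold r was -0.50. Within spleen the 2 values of r were 0.56 and -0.52, and within GBM 0.33 and -0.65. For CT010467.1 r was -0.22 at 1 TPM and 0.19 at 10 TPM (permutation p = 0.273 and 0.337) and rho -0.38 and -0.027 (p = 0.0496 and 0.893), and at 1 TPM r was -0.65 within spleen and 0.43 within GBM. Without the 2 farthest libraries these were -0.57 and -0.21, so the positive value in GBM rested on 2 libraries. As a ratio to the features that are not members CT010467.1 turned sign at 10 TPM, with r = -0.39 (permutation p = 0.0417, adjusted over 9 members 0.0626) and rho = -0.50 (p = 0.00824, adjusted 0.0106), and r was -0.02 at 1 TPM. On that scale Gm26870 had r = 0.43 at 1 TPM and -0.71 at 10 TPM (adjusted permutation p = 0.0430 and 5.4e-05). Features were counted on TPM before rescaling, and the summed TPM of the features that are not members is the denominator of the ratio. Where it is small the ratio is high and fewer features reach 10 TPM. Part of the negative values at 10 TPM is therefore built in, and no conclusion is drawn from them. The satellite-richest library, spleen_79_a, had 13915 features above 1 TPM and 3110 above 10 TPM, the lowest of all at that threshold. What lies behind this relation was not tested.

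**Figure D5:**
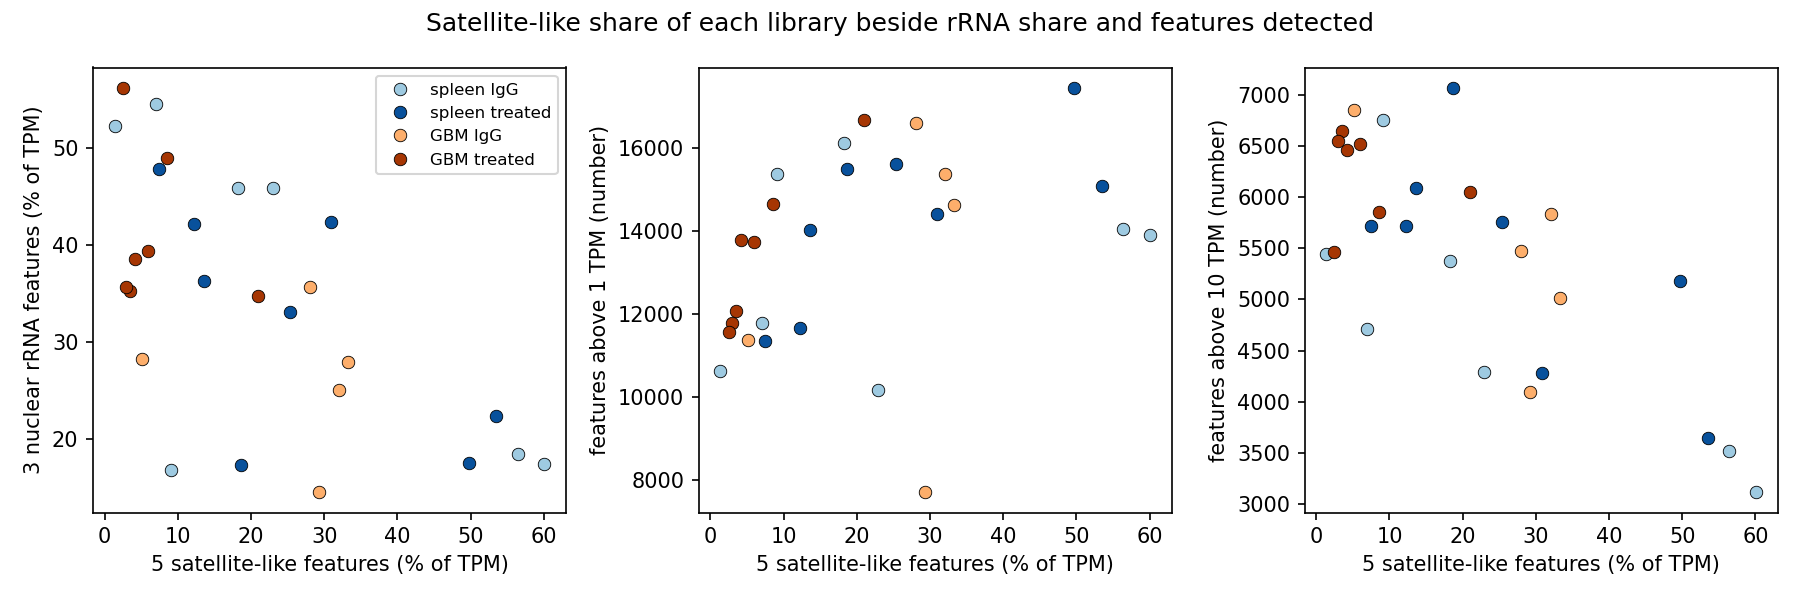
Satellite-like share of TPM (percent) in each of the 27 libraries against the nuclear rRNA share, the number of features above 1 TPM and the number above 10 TPM, with groups marked. The library with the highest share, 60.1%, has the fewest features above 10 TPM, 3110.

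Among 6216 features compared over the 27 libraries by Spearman rho, the 5 nearest to Gm26870 that are not members were Gm10719, Gm11168, Gm10722, Gm10718 and Gm10720, with rho of 0.995 to 0.996. All 5 lie in its own region and carry the repeat. The 8 satellite-carrying neighbours on chromosome 9 had differences like those of the members, -2.07 to -1.98 in GBM after treatment (adjusted limma p 0.0977 to 0.114) and -2.10 to -1.95 in GBM against spleen after treatment, where all 8 were called lower (adjusted p 0.0107 to 0.0175). They share reads with the members and add no independent support. The nearest to CT010467.1 were Rbm39, a splicing factor (rho = 0.83), Eif5, a translation initiation factor (0.82), Dnajc3, an endoplasmic reticulum chaperone (0.81), Atp1b3, a sodium pump subunit (0.81), and Ptpn18, a tyrosine phosphatase (0.80).

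The nearest to mt.Rnr2 were messenger RNAs of its own genome, mt.Co1 (rho = 0.94), mt.Nd1 (0.90), mt.Cytb (0.89), mt.Nd5 (0.86) and mt.Nd2 (0.83), which encode subunits of the respiratory chain. The small-subunit rRNA mt.Rnr1, encoded next to mt.Rnr2 on the same strand, was listed at 12.8 to 700.2 TPM against 2503 to 48845 TPM for mt.Rnr2, with a rho of 0.64. Of 14 other mitochondrial transcripts, which were all tested, 0 were called in any of the 4 comparisons by limma. In GBM after aPD1+aGITR all 14 had lower means, with a median of -1.17 where that of all features was 0.62, and 3 had an unadjusted p under 0.05, where 4.91% of all features were lower at that threshold, the lowest being mt.Cytb, a subunit of complex III (-1.54, adjusted p = 0.185), and mt.Nd1, a subunit of complex I (-1.30, adjusted p = 0.193). These transcripts were measured in the same libraries as mt.Rnr2, among them tumor_369_a and tumor_79_a, and add no independent support. In splenic Treg cells 5 were higher and 9 lower after treatment, with a median of -0.11.

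Genes that make or process rRNA, or pack the satellite, were looked up in lists. Of 15 genes of RNA polymerase I transcription, 9 to 11 were tested per comparison and 0 were called. Those with the lowest p in GBM after treatment were the subunit Polr1c (1.52, adjusted p = 0.189) and the promoter factor subunit Taf1b (1.75, adjusted p = 0.189), and in all 2 of 9 had an unadjusted p under 0.05, against 22.3% of all features. Of 25 rRNA processing genes 22 were tested in GBM against spleen after treatment, and 2 were called higher in GBM, where 15.8% of all features were: Ebna1bp2, a nucleolar protein of large-subunit assembly (2.00, adjusted p = 0.0439), and Xrn2, an exonuclease that trims rRNA (1.48, adjusted p = 0.0476). Of the 22, 20 had a mean above 10 TPM in spleen, and Ebna1bp2 passed the filter through GBM alone, with a median of 6.87 TPM in spleen, so its count is no support for a difference. The median of these 22 was 0.32, below the 0.95 of all features. Of 15 genes of mitochondrial RNA synthesis and processing 9 or 10 were tested per comparison and 0 were called, with unadjusted p under 0.05 for 1 of 9 in GBM after treatment, against 22.3% of all features, Hsd17b10 (1.89, adjusted p = 0.179), a subunit of mitochondrial RNase P.

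Of 18 genes of pericentromeric heterochromatin 15 were tested in GBM against spleen after treatment, the comparison in which the satellite-like members were lower. In that comparison 4 were called higher in GBM, against the same 15.8% of all features: the maintenance DNA methyltransferase Dnmt1 (1.97, adjusted p = 0.0345), the H3K9 methyltransferase Suv39h1 (2.07, adjusted p = 0.0370), the chromatin remodeler Hells (2.18, adjusted p = 0.0430) and the histone chaperone Daxx (1.99, adjusted p = 0.0498). Median levels in GBM and spleen were 24.4 and 5.39 TPM for Dnmt1 and 14.4 and 2.96 TPM for Suv39h1. Of the 15 genes 11 had a mean above 10 TPM in spleen, and Dnmt1, Suv39h1 and Hells, with a median of 2.86 TPM in spleen for Hells, passed the filter only through GBM, where they were high, so the count of 4 is a description and no support. With a mean above 10 TPM required in both groups, Daxx and Xrn2 were no longer called, and the other 4 of the 6 genes were not tested. The median of the 15 was 0.88, near the 0.95 of all features. None of these 4, nor Ebna1bp2 or Xrn2, passed the adjusted threshold once TPM was rescaled without the members or by TMM-type factors (adjusted p 0.0733 to 0.155), and their sign stayed positive. Of 15 fits that left out 1 library, the call was lost in 7 for Suv39h1, 8 for Dnmt1, 10 for Hells, 11 for Daxx and for Xrn2, and 12 for Ebna1bp2. In GBM after treatment 0 of 15 tested were called, and 2 had an unadjusted p under 0.05, against 22.3% of all features, the corepressor Trim28 (1.69, adjusted p = 0.174) and the HP1 protein gene Cbx1 (1.49, adjusted p = 0.199).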

How the data were processed

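Libraries were made by the Smart-Seq2 protocol from sorted Treg cells. By the methods and the submitters' processing notes, the authors used bcl2fastq, aligned reads to mm10 with TopHat2 and calculated transcripts per 1000000 (TPM) with RSEM. Versions and the annotation are not given in the sources used here. The deposited table holds a score, TPM plus 1, for 53801 features, with a lowest value of 1, and it keeps rRNA and repeats in the total. Read depth is unknown, so no counting interval is given.

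One was subtracted to recover TPM. Of 28 samples described, 27 have a named column. A further column without a name was not used. Groups follow the labels. No 2 of the 351 pairs of libraries were identical. The 9 members, the gene lists and the rule for named genes (all members, the 5 features most like CT010467.1, Gm26870 and mt.Rnr2, and in each list those called, or the 2 with the lowest p) were chosen with earlier results of these data known.

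log2(TPM + 1) was fitted with limma 3.58.1 in R 4.3.3 for features that exceeded 10 TPM on average in either compared group, with an intensity trend in eBayes and two-sided Benjamini-Hochberg adjusted p. The interaction used all 27 libraries. Single members were compared by exact permutation of the libraries. Relations used 100000 permutations (Python 3.11.15, scipy 1.17.1). The fit was tested on simulated data. Sequences and positions come from GENCODE M21 (GRCm38). Alternatives were pseudocounts of 0.1 and 10, other filters, rescaling without the members, TMM-type factors (30% and 5% trimmed), 1 fit of all groups, library weights, a replicate block, and each library left out. No intensity trend, an ordinary linear model, and leaving out tumor_369_a and tumor_79_a together were added after seeing the data.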

Additional observations from a re-analysis of the deposited data

Results flagged for a closer look

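In the GBM IgG group library tumor_79_a stood apart as the lowest for each satellite-like member, with 29428 TPM for Gm26870, 17174 TPM for Gm10800, 2229 TPM for Gm10801, 1291 TPM for Gm10717 and 745 TPM (744.53) for Gm21738, and with a satellite-like share of 5.09%. Its gap to the next library, as a part of the range of the group, was above Dixon's 95% critical value. By the same measure library tumor_73_b, with a satellite-like share of 20.95%, was the highest of the 7 GBM libraries after aPD1+aGITR. In all 7 of 48 values tested were marked in this way, where chance marks about 1 in 20, and 6 of the 7 are readings of the same repeat in the same library.

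The effect of treatment on the satellite-like members differed between GBM and spleen at an unadjusted limma p under 0.05, with interaction coefficients of -2.68 for Gm26870, -2.56 for Gm10800, -2.43 for Gm10801, -2.65 for Gm10717 and -2.39 for Gm21738. None passed the adjusted threshold (adjusted p 0.314 to 0.341).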

How the results depend on the processing

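Apart from leaving out libraries, 665 recomputed values were unchanged, 64 were weaker, 7 were stronger, 10 changed sign and 2 moved beyond the spread. A tested value was unchanged if it kept its sign and its side of the threshold, also where it had no call. A share was unchanged if it moved within the pooled SD, and a count if it stayed of like size. Weaker and stronger values lost or gained a call, or were counts that fell or rose. For the satellite-like members the calls in GBM against spleen after aPD1+aGITR were lost with no filter, and those in GBM after treatment were gained with library weights (adjusted p 0.0224 to 0.0275 in limma). Rescaled without the members, mt.Rnr2 in spleen after treatment was -0.094 and Gm26917 in GBM against spleen after treatment -0.37, 19 pairs passed, and r of CT010467.1 with Gm26870 was 0.091. TMM-type factors gave -0.16 and -0.31 for those 2 members, and library weights -0.052 for mt.Rnr2. Without tumor_369_a and tumor_79_a mt.Rnr2 differed by -0.28 between GBM and spleen under IgG. At 10 TPM r with the number of features was 0.19 for CT010467.1 and -0.60 for Gm26870. With CT010467.1 left out of both sums the share of the other members differed by -22.1 percentage points in GBM after treatment and by -25.1 between GBM and spleen after treatment, where all 9 gave -4.51 and -11.1. The cause of these shifts was not tested.

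Leaving out each library in turn changed signs in comparisons without a call: in spleen after treatment CT010467.1 ranged from -0.22 to 0.066, Gm10801 from -0.013 to 0.89, Gm21738 from -0.034 to 0.87, Gm42418 from -0.24 to 0.094 and mt.Rnr2 from -0.26 to 0.46, between GBM and spleen under IgG Gm10800 from -0.011 to 1.07, Gm10801 from -0.13 to 1.00 and Gm21738 from -0.16 to 0.98, and after treatment Gm26917 from -0.063 to 0.16. Deviations of spleen and GBM libraries with the same number and letter had correlations from -0.15 to 0.16, and from -0.30 to 0.16 over all that share a number, not all above 0.1, so the numbers were not taken to pair them. With a replicate block CT010467.1 differed by -0.59 under IgG and 0.39 after treatment, its interaction was 0.98, Gm26917 after treatment was -0.017, and all 5 satellite-like members kept their call (adjusted p 0.0252 to 0.0450). Depth is unknown, so no limit from counting can be given.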
